A study of Mus musculus with 24 samples.

Results

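The genes described here encode a ligand, 2 receptors and 6 binding proteins of the insulin-like growth factor (IGF) system in cultured primary osteoblasts (OBs). They are the ligand gene *Igf1*, the receptor genes *Igf1r* and *Igf2r*, and the binding protein genes *Igfbp2*, *Igfbp3*, *Igfbp4*, *Igfbp5*, *Igfbp6* and *Igfbp7*, chosen by symbol as 9 genes of the 55335 counted in each library. All 9 had a single entry and passed the filter on low counts in all 5 comparisons. OBs came from parietal bones, flat bones of the skull vault, of pups that were either wild type (WT) or heterozygous (Het) for the G610C allele of *Col1a2*, which puts a cysteine in place of a glycine in the triple helix of type I procollagen, from a colony kept on C57BL/6J. Pups were less than a week old, and cells from several pups with the same genotype went into a pool. Cultures of both genotypes were kept in αMEM with serum and ascorbic acid 2-phosphate under osteogenic differentiation, and bulk RNA was taken on day 8, day 14 or day 21 of culture. Each genotype and day has 4 libraries, numbered as replicates 1 to 4 (24 libraries). Because wells shared pools of pups, p-values here measure the spread between wells and not between animals. Counts per gene carry no alleles, so the genotype labels cannot be checked against them.

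IGF1 is a secreted growth factor made by OBs and by other cells, macrophages among them, and it acts on IGF1R, a receptor tyrosine kinase that signals through IRS adaptors, PI3 kinase and AKT. In bone this pathway is known for supporting the survival of OBs and the making of matrix. IGF2R has no kinase, carries IGF2 and lysosomal enzymes to lysosomes, and so lowers the IGF2 around a cell. The IGF binding proteins hold IGFs outside the cell, where they can keep them from the receptor or store them in matrix, and proteases such as pregnancy-associated plasma protein A (PAPPA) can release the IGF again.

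Libraries held 17140202 to 59734231 counts (median 48340136), and replicate 1 of each group was shallower (17140202 to 25825762) than replicates 2 to 4 (28159342 to 59734231). The study ran a pair of experiments on different litters, with other plating densities and oxygen levels, and with a single well for each genotype and day in the first. The labels list more libraries a group than the wells that the methods describe, and all libraries were used. Which replicate belongs to which experiment is not given in the sources used here, so replicate 1 was treated as a possible batch and values are also given without it. Levels are given as relative quantity (RQ), a gene's count over the geometric mean of 4 housekeeping genes (*Sdha*, *Mrfap1*, *Actb* and *Actg1*) in that library. The 8 osteoblast markers summed to an RQ of 32.3 to 339.8, mostly from *Col1a1* and *Col1a2*. The 7 endothelial markers reached no more than 0.0146, with *Cdh5* at 1 to 13 counts, and the 6 adipocyte markers no more than 0.0183. Summed RQ was 0.348 to 1.09 for 7 osteoclast markers, 3.80 to 7.77 for 6 smooth muscle markers and 0.295 to 0.559 for 6 fibroblast markers. The smooth muscle sum was mostly *Acta2* (2.77 to 4.95) and *Tagln* (0.890 to 2.55). The defining smooth muscle markers were low, with *Myh11* at no more than 0.0337 and *Myocd* at 2 to 16 counts. Among the osteoclast markers, *Calcr* had 0 or 1 count and *Acp5* had 301 to 1367. Of 6 osteoclast markers tested, 5 rose from day 8 to the later days, where 58.3% of all genes were called. Macrophage, chondrocyte and osteoblast markers are given by group beside the genes below, as are the fibroblast markers. In bulk RNA, fewer cells of a type and less RNA per cell cannot be told apart.

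In GENCODE release M21 (GRCm38), *Igf1* lies at chr10:87858265-87937042 (+ strand), *Igf1r* at chr7:67952827-68233668 (+) and *Igf2r* at chr17:12682406-12769664 (−). *Igfbp2*, at chr1:72824503-72852474 (+), and *Igfbp5*, at chr1:72857932-72874884 (−), are neighbours whose 3′ ends face each other. *Igfbp3* (chr11:7206086-7213923, −) and *Igfbp4* (chr11:99041244-99054392, +) share a chromosome, *Igfbp6* is at chr15:102144362-102149511 (+) and *Igfbp7* at chr5:77349240-77408041 (−). Exons of *Igfbp7* overlap exons of *Polr2b* on the opposite strand, and reads of the overlap cannot be told apart unless strand was used in counting, which the sources used here do not state.

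RefSeq promoter windows (GRCm38.p6, 250 bases before the transcript start) were found for all 9 genes, 10 windows in all because *Igfbp2* has a pair of starts. They were searched on both strands for TATAAA (the TATA box), GGGCGG (a core of SP1 sites), AACCNCA (a core of RUNX sites) and TGATGNAAN (the composite element of ATF4 and CHOP). Of 32851 such windows over all genes, 12.4% hold the first, 32.7% the second, 12.6% the third and 3.44% the fourth. TATAAA stood in the windows of *Igfbp4* and *Igfbp6*, GGGCGG in those of *Igf1r*, *Igf2r*, *Igfbp2* and *Igfbp7*, and AACCNCA in those of *Igf2r* and *Igfbp3*. No window of the 9 genes held TGATGNAAN, none of the 4 motifs was found for *Igf1* or *Igfbp5*, and no match overlapped another. A match is a run of letters and not a site in use. Shown are the window of *Igfbp6*, the gene that passed the test between genotypes over all replicates, and those of *Igfbp4* and *Igfbp7*, which rose with time in culture. *Igf1* and *Igfbp5* rose with time as well, and their windows, without any of these motifs, are not shown. A link between motifs and the rise was not tested. Motif letters are in capitals, and each window is written 5′ to 3′ on the gene's strand.
*Igfbp6* (chr15:102143936-102144185, + strand): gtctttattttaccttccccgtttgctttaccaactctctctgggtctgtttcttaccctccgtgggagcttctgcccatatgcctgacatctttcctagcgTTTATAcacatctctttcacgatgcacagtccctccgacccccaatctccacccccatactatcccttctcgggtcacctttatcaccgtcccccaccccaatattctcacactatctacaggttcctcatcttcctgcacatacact
*Igfbp4* (chr11:99040994-99041243, + strand): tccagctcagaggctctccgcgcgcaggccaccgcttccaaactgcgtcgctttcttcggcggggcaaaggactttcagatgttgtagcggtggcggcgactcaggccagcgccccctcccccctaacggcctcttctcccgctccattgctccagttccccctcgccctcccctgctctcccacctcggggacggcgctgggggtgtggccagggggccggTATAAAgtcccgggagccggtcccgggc
*Igfbp7* (chr5:77408046-77408295, − strand): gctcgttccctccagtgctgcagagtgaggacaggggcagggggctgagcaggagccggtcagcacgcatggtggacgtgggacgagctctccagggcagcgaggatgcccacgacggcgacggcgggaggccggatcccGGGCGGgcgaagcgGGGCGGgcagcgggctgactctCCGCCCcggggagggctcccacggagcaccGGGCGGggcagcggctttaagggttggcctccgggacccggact
In *Igfbp4* the TATA box ran from base −28 to base −23 before the start. The match of *Igfbp6* was on the other strand, at −148 to −143, and its RefSeq start lies upstream of the GENCODE start of the gene. *Igfbp7* had 3 GGGCGG on its own strand and 1 on the other.

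To compare genes with each other, RQ was divided by the length of the gene's exons in kb. *Igfbp2* and *Igfbp4*, the latter a binding protein that is known as an inhibitor of IGF action, had the highest levels of the 9 genes in every group. At days 14 and 21 the level was 1.39 ± 0.319 RQ per kb for *Igfbp2* and 1.14 ± 0.240 for *Igfbp4* (mean ± SD, n = 16), and their ranges overlapped. *Igfbp5*, whose product binds to matrix in bone, followed at 0.339 ± 0.0849 and *Igfbp7* at 0.234 ± 0.0820, again with overlapping ranges. *Igf2r* stood apart from both neighbours, at 0.0633 ± 0.0114. *Igf1* (0.0240 ± 0.00849), *Igfbp6* (0.0239 ± 0.0121) and *Igfbp3* (0.0154 ± 0.00700) were not separated by their spread. *Igf1r* was lowest at 0.00746 ± 0.000693, although its range at days 14 and 21 overlapped that of *Igfbp3*. At day 8 the order was *Igfbp2* (1.02 ± 0.458, n = 8), *Igfbp4* (0.651 ± 0.184), *Igfbp5* (0.133 ± 0.0627), *Igfbp7* (0.110 ± 0.0210), *Igf2r* (0.0825 ± 0.0161), *Igfbp6* (0.0174 ± 0.00855), *Igfbp3* (0.0163 ± 0.00796), *Igf1* (0.00979 ± 0.00491) and *Igf1r* (0.00786 ± 0.000685). The day 8 ranges of neighbours in this order overlapped except between *Igfbp4* and *Igfbp5* and between *Igf2r* and *Igfbp6*. *Igf2*, the other IGF ligand and not one of the 9 genes, stood between *Igfbp2* and *Igfbp4* at day 8 (0.901 ± 0.154), and was the more abundant ligand in every group.

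**Figure D1:**
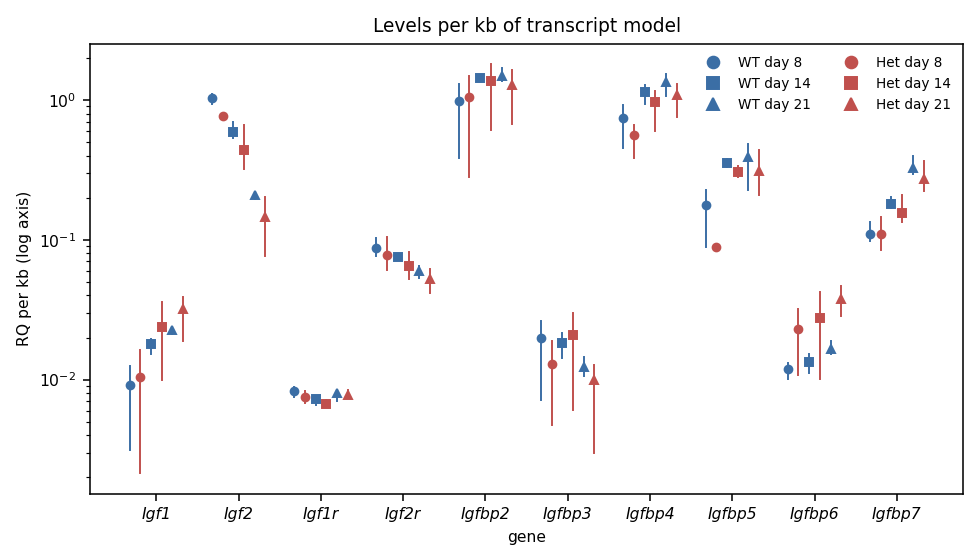
Mean RQ per kb of exon length (log axis) of the 9 genes and *Igf2* by genotype and day, with bars from the lowest to the highest of 4 libraries. *Igfbp2* and *Igfbp4* are near 1 RQ per kb at days 14 and 21, *Igf1r* is below 0.01 in every library, and *Igf2* falls with time while *Igf1* lies higher at days 14 and 21 than at day 8.

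Summed per kb over *Igfbp2* to *Igfbp6*, the classical binding proteins counted here, *Igfbp2* made up 45.9% to 56.5% and *Igfbp4* 35.3% to 41.4% of the group means. *Igfbp6* made up 0.454% to 0.682% in WT and 1.23% to 1.498% in Het. The share of *Igfbp3* was under 1% in each group mean.

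Het and WT cultures were first compared at days 14 and 21 together, with 8 libraries a genotype and day as a covariate. These are replicates 1 to 4 on each day, and same-numbered libraries of different days deviated together (median correlation 0.425). The 8 libraries are therefore not 8 independent units, which the test does not take into account. *Igfbp6* was higher in Het, and no other member passed edgeR's quasi-likelihood test with Benjamini-Hochberg adjustment. This is 1 of 9 genes, against 16.1% of the 19839 genes tested. The median log2 fold change was −0.14 over the 9 genes and −0.05 over all genes. *Igf1*, *Igf2r* and *Igfbp7* had an unadjusted p under 0.05 and failed the adjustment. Of all genes called, 45.0% were higher in Het on the housekeeping scale, against 62.4% with TMM, 66.1% with DESeq2's size factors and 76.5% with the total count. Without replicate 1, 4 of the 9 genes passed (7582 of 19263 genes), with *Igf1* and *Igfbp6* higher and *Igf1r* and *Igf2r* lower in Het.

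At day 8, none of the 9 genes passed (4 libraries a genotype), and 0% of 18222 genes did in edgeR's test. At an unadjusted p under 0.05 there were 1817 genes, *Igfbp5* and *Igfbp6* among them, and DESeq2's Wald test called 451 genes, of which *Igfbp5* was a member (−0.93 ± 0.27 SE on the log2 scale, adjusted p = 0.0277). With the replicate number as a block, 285 genes passed, and 3 members did: *Igfbp6* was higher in Het, and *Igfbp3* and *Igfbp4* were lower. Without replicate 1, 3432 of 18347 genes passed, and these 3 genes and *Igfbp5* were called. The Het effect at days 14 and 21 was also tested against that at day 8. It differed for none of the 9 genes in edgeR's test (1 at an unadjusted p under 0.05, *Igfbp5*, at an adjusted p of 0.791) and for 0.171% of 20434 genes (35, of which 34 with a more positive effect at the later days). DESeq2's Wald test called 95 genes and the replicate block 67, with no member in either. Without replicate 1 the effect differed for 928 genes, including *Igfbp3* (0.85 ± 0.20 SE, adjusted p = 0.018) and *Igfbp5* (0.89 ± 0.22, adjusted p = 0.0263), both with a more positive effect at the later days.

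**Figure D2:**
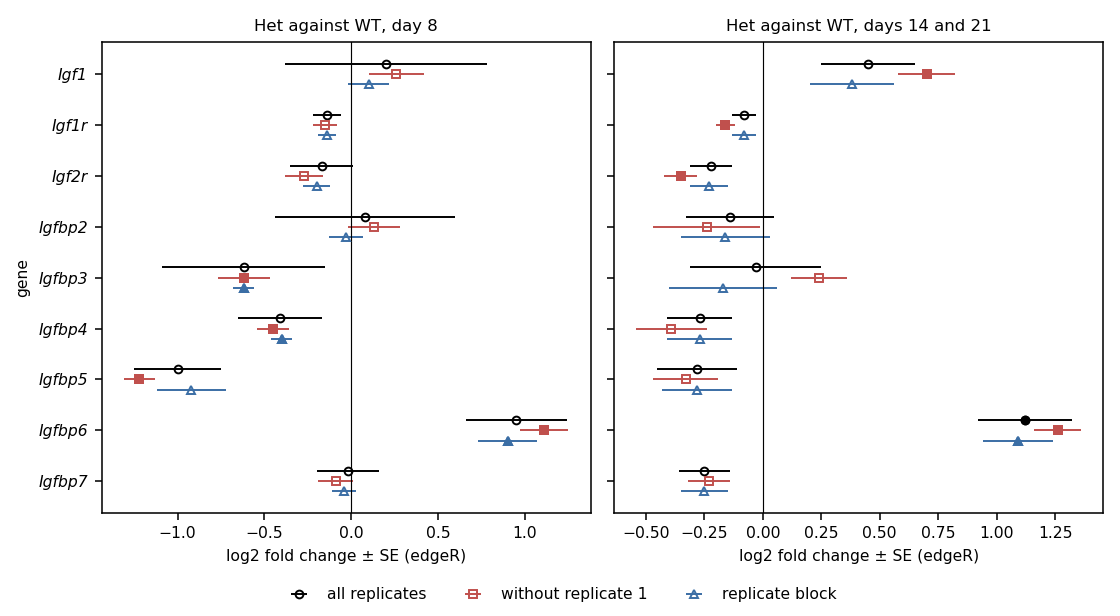
Log2 fold change of Het against WT with its standard error (edgeR) for each gene at day 8 (left) and at days 14 and 21 (right), from all replicates, without replicate 1 and with the replicate number as a block. Filled symbols mark an adjusted p under 0.05: over all replicates this holds for *Igfbp6* at days 14 and 21, at a log2 fold change of 1.12.

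From day 8 to days 14 and 21 together (24 libraries, 6 groups), *Igf1*, *Igfbp4*, *Igfbp5* and *Igfbp7* rose and *Igf2r* fell, 5 of 9 genes where 58.3% of 20434 genes were called. The median log2 fold change was 0.45 over the 9 genes and 0.16 over all genes. That median shifts with the scaling, to −0.02 with TMM and −0.14 with the total count, and of the genes called 70.1% were higher on the housekeeping scale against 45.6% and 33.0%. Relative to the median of all genes, the log2 changes were 1.11 for *Igf1*, 0.65 for *Igfbp4*, 1.27 for *Igfbp5*, 0.87 for *Igfbp7* and −0.55 for *Igf2r*, and within 0.05 of these with the other scalings. With the replicate number as a block, *Igfbp6* rose as well (0.42 ± 0.13 SE, adjusted p = 0.00991). From day 14 to day 21, *Igfbp7* and *Igf1r* rose and *Igf2r* fell, 3 of 9 genes against 19.3% of 19839. Of the genes called there, 69.2% were higher on the housekeeping scale and 51.2% with TMM. The replicate block added *Igfbp3*, which fell (−0.83 ± 0.23 SE, adjusted p = 0.0183, against 0.0544 without the block). In Het alone none of the 9 genes passed between days 14 and 21, where 69 genes did in all.

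**Figure D3:**
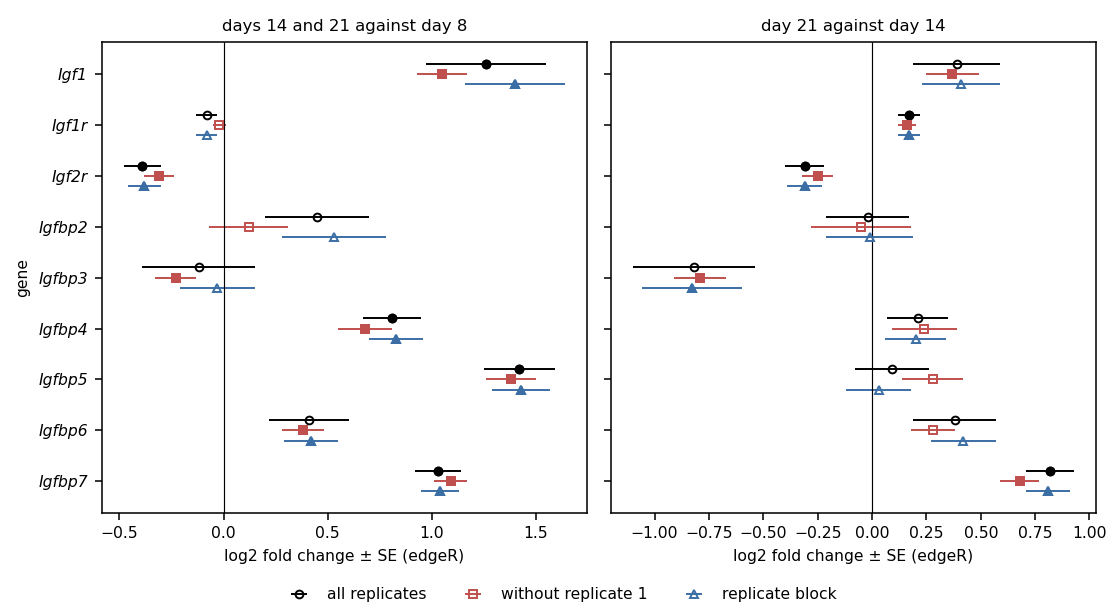
Log2 fold change with its standard error (edgeR) for each gene from day 8 to days 14 and 21 (left) and from day 14 to day 21 (right), from all replicates, without replicate 1 and with the replicate number as a block. Filled symbols mark an adjusted p under 0.05, and *Igfbp5*, *Igf1* and *Igfbp7* lie farthest to the right in the left panel, at 1.42, 1.26 and 1.03.

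*Igfbp6* encodes a binding protein that prefers IGF2 over IGF1. In WT its RQ in replicates 1 to 4 was 0.0113, 0.0147, 0.0141 and 0.0128 at day 8, 0.0124, 0.0169, 0.0152 and 0.0151 at day 14, and 0.0176, 0.0211, 0.0171 and 0.0179 at day 21. In Het it was 0.0120, 0.0311, 0.0357 and 0.0232 at day 8, 0.0112, 0.0468, 0.0316 and 0.0333 at day 14, and 0.0317, 0.0405, 0.0519 and 0.0443 at day 21. At day 21 all 4 Het libraries were above all 4 WT libraries, and at days 8 and 14 replicates 2 to 4 of Het were while replicate 1 was not. Over days 14 and 21 mean RQ was 0.0364 in Het and 0.0167 in WT, a ratio of 2.19 with Het higher in 7 of 8 same-numbered pairs (log2 fold change 1.12 ± 0.195 SE, adjusted p = 0.0025 in edgeR). An exact permutation test of the difference in mean RQ, two-sided, gave p = 0.0014 with 8 libraries a group. It shuffled libraries over both days and all replicate numbers, and so ignored day and pairing by number. The ratio was 1.43 in replicate 1 and 2.404 in replicates 2 to 4. Without replicate 3 the log2 fold change was 1.04 and without replicate 4 it was 1.08, and neither passed (adjusted p = 0.0584 and 0.0875). At day 14 alone it was 1.04 ± 0.34 SE (adjusted p = 0.173) and at day 21 alone 1.19 ± 0.15 (adjusted p = 0.0102). At day 8 the ratio was 1.93, with 1.06 in replicate 1 and 2.17 in replicates 2 to 4, and the edgeR value of 0.95 ± 0.291 had an adjusted p of 0.309 (0.0475 with the replicate block, at 0.90 ± 0.17). The Het effect at the later days less that at day 8 was 0.17 ± 0.367 SE (adjusted p = 1), so a change of the effect with time was not detectable.

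In WT *Igfbp6* was higher at day 21 than at day 14 in all 4 replicates, with a ratio of 1.23 and no overlap (exact permutation p = 0.0286, the smallest that 4 against 4 can give). Over both genotypes the change from day 14 to day 21 was 0.38 ± 0.193 SE (adjusted p = 0.199), and that from day 8 to the later days 0.41 ± 0.186 (adjusted p = 0.0653).

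*Igf1* rose with time in both genotypes. Its RQ in replicates 1 to 4 of WT was 0.0309, 0.124, 0.117 and 0.0885 at day 8, 0.195, 0.150, 0.181 and 0.183 at day 14, and 0.228, 0.234, 0.209 and 0.224 at day 21. Het replicates 1 to 4 had 0.0211, 0.161, 0.130 and 0.103 at day 8, 0.0976, 0.189, 0.357 and 0.291 at day 14, and 0.188, 0.372, 0.323 and 0.386 at day 21. Replicate 1 was the lowest library of its group at day 8 in both genotypes and at days 14 and 21 in Het. From day 8 to the later days *Igf1* rose by 1.26 ± 0.289 SE on the log2 scale (adjusted p = 0.000748), and in 16 of 16 comparisons of same-numbered wells. The ratio of mean RQ was 6.81 in replicate 1 and 2.14 in replicates 2 to 4. All 8 later WT libraries were above all 4 WT libraries of day 8 (ratio 2.23), and 7 of 8 in Het (ratio 2.65).

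Between genotypes *Igf1* did not pass over all replicates (0.45 ± 0.201 SE at days 14 and 21, adjusted p = 0.133), and replicate 1 went the opposite way to the others. Het over WT was 0.674 in replicate 1 and 1.62 in replicates 2 to 4, and this difference was not tested. Without replicate 1 the log2 fold change was 0.70 ± 0.12 (adjusted p = 0.000414), with all 3 Het libraries above all 3 WT libraries on each of days 14 and 21. DESeq2's Wald test on all replicates also called *Igf1* (0.52 ± 0.21, adjusted p = 0.0459). At day 8 the ratio was 1.15, and 0.21 ± 0.578 SE on the log2 scale (adjusted p = 0.952).

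Macrophages make IGF1, and macrophage markers rose with time, as *Igf1* did, while their ratios between genotypes differed in size from those of *Igf1*. In replicate 1 the marker sum was 4.97 in WT and 3.43 in Het at day 14, and 6.83 and 8.72 at day 21. *Igf1* in these wells was lower in Het on each day, at 0.195 in WT and 0.0976 in Het at day 14, and 0.228 and 0.188 at day 21. The summed RQ of the 12 markers had a median of 0.286 at day 8, 2.23 at day 14 and 6.96 at day 21 for WT, and for Het of 0.890, 7.38 and 12.2. It ranged from 1.55 to 7.69 in WT and from 3.43 to 19.4 in Het over days 14 and 21. All 12 rose from day 8 to the later days, where 58.3% of all genes were called. At days 14 and 21, 11 of 12 were called higher in Het, against 16.1% of all genes called. An example is *Csf1r*, the receptor of a macrophage growth factor, at 1.05 ± 0.198 SE (adjusted p = 0.00391 in edgeR's test). The Het over WT ratio of the sum at days 14 and 21 was 1.03 in replicate 1, where that of *Igf1* was 0.674, and 2.43 in replicates 2 to 4, where that of *Igf1* was 1.62. At day 8 the ratio of the sum was 0.843 in replicate 1 and 3.51 in replicates 2 to 4, against 0.685 and 1.20 for *Igf1*. The defining markers *Ptprc*, *Csf1r* and *Adgre1* were above 0 in every library. The part of macrophages in the *Igf1* and *Igfbp6* values was not tested.

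**Figure D4:**
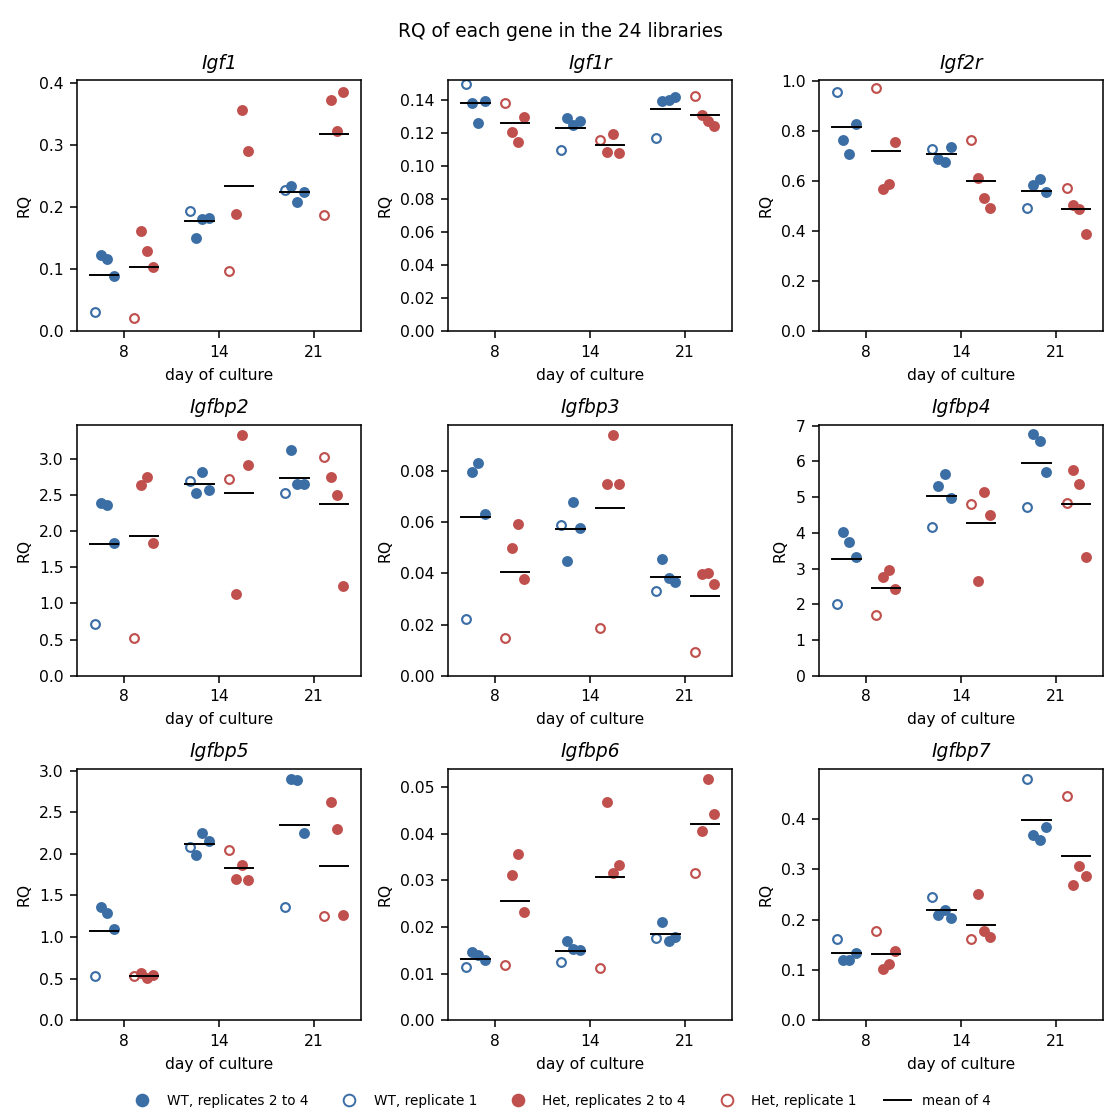
RQ of each of the 9 genes in the 24 libraries by day and genotype, with replicate 1 as open circles, replicates 2 to 4 as filled circles and the mean of the 4 as a line. *Igfbp6* lies between 0.0317 and 0.0519 in the 4 Het libraries of day 21 and between 0.0171 and 0.0211 in WT, and replicate 1 often stands apart from the other wells, as for *Igf1* at day 8.

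**Figure D5:**
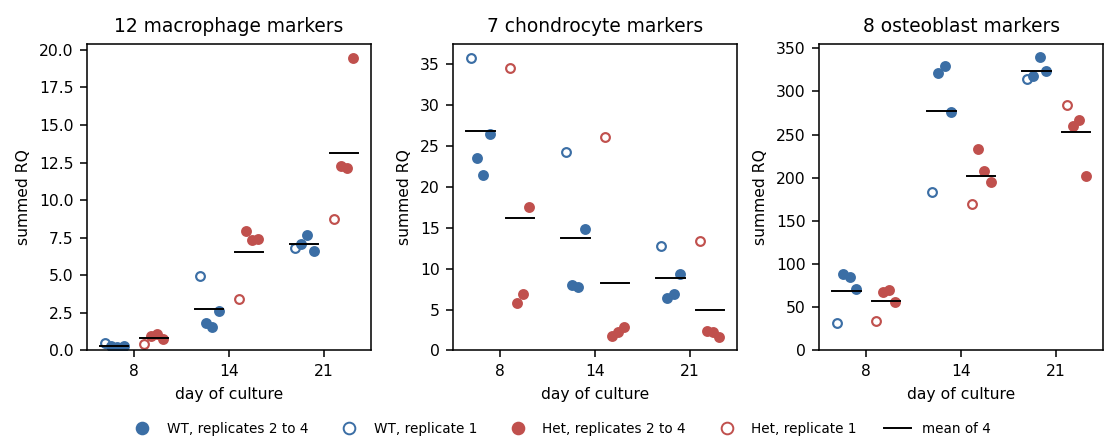
Summed RQ of 12 macrophage, 7 chondrocyte and 8 osteoblast markers in each library by day and genotype, with symbols for replicate 1 (open) and replicates 2 to 4 (filled) and the mean of 4 as a line. In replicates 2 to 4 macrophage markers lie higher and chondrocyte markers lower in Het than in WT on each day, while in replicate 1 the genotypes lie closer together.

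The receptor genes varied less. *Igf1r*, the gene of the signalling receptor, had an RQ of 0.108 to 0.150 over the 24 libraries. Mean RQ of WT and Het was 0.138 and 0.126 at day 8, 0.123 and 0.113 at day 14, and 0.135 and 0.131 at day 21. Het against WT at days 14 and 21 gave −0.08 ± 0.052 SE (adjusted p = 0.296), with a ratio of 1.14 in replicate 1 and 0.894 in replicates 2 to 4. Without replicate 1 it was −0.16 ± 0.04 (adjusted p = 0.00295), and with the total count as the scale the sign turned (0.01). From day 14 to day 21 *Igf1r* rose by 0.17 ± 0.052 SE (adjusted p = 0.0274), in 8 of 8 same-numbered pairs, and the call was lost with the total count, TMM or either DESeq2 setting (0.12 in each, adjusted p = 0.0999 to 0.173), without *Mrfap1* in the scale (0.15, adjusted p = 0.117), with no filter on low counts (adjusted p = 0.0535), in either genotype alone, and without replicate 2, 3 or 4 (0.17 to 0.19, adjusted p = 0.114 to 0.131). From day 8 to the later days it changed by −0.08 ± 0.046 (adjusted p = 0.163) on the housekeeping scale and by −0.38 (adjusted p = 1.97e-07) with the total count. It was also called lower with TMM (−0.25, adjusted p = 6.29e-05), DESeq2's size factors (−0.22, adjusted p = 0.000296) and DESeq2's Wald test (−0.22, adjusted p = 8.79e-06). On the housekeeping scale day 14 alone was lower than day 8 (−0.16, adjusted p = 0.0156), and day 21 alone was not (0.01, adjusted p = 0.9).

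*Igf2r* fell with time. In WT the RQ of replicates 1 to 4 was 0.956, 0.765, 0.709 and 0.828 at day 8, 0.726, 0.689, 0.676 and 0.736 at day 14, and 0.493, 0.586, 0.609 and 0.558 at day 21. In Het these were 0.973, 0.569, 0.589 and 0.756 at day 8, 0.762, 0.611, 0.534 and 0.492 at day 14, and 0.574, 0.505, 0.487 and 0.390 at day 21. Every WT library of day 21 was below every WT library of day 14, and in Het each well was lower at day 21 than the same-numbered well at day 14, although the groups overlapped. The log2 change was −0.39 ± 0.094 SE from day 8 to the later days (adjusted p = 0.00115, lost in Het alone at −0.42 with 0.0615 and from day 8 to day 14 at −0.24 with 0.0846) and −0.31 ± 0.090 from day 14 to day 21 (adjusted p = 0.0216). The later call was lost without replicate 2, 3 or 4 (adjusted p = 0.0648 to 0.0923), in Het alone (0.432), without *Sdha* in the scale (0.0503) and with all 24 libraries in one fit (0.0529). Between genotypes at days 14 and 21 it was −0.22 ± 0.090 SE (adjusted p = 0.105), with a ratio of 1.096 in replicate 1 and 0.783 in replicates 2 to 4. Without replicate 1 the value was −0.35 ± 0.07 (adjusted p = 0.00128), and each Het library was below each WT library on days 14 and 21.

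*Igfbp5* had the largest log2 change with time of the 9 genes over both genotypes, although in WT alone *Igfbp7* (1.14) and *Igf1* (1.13) rose more. Its RQ in replicates 1 to 4 of WT was 0.532, 1.36, 1.28 and 1.099 at day 8, 2.08, 1.99, 2.25 and 2.15 at day 14, and 1.37, 2.899, 2.89 and 2.26 at day 21. In Het it was 0.527, 0.562, 0.507 and 0.541 at day 8, 2.04, 1.70, 1.87 and 1.69 at day 14, and 1.25, 2.62, 2.30 and 1.27 at day 21. At day 8 the 4 Het libraries and replicate 1 of WT lay together, and replicates 2 to 4 of WT were higher. The rise to days 14 and 21 was 1.42 ± 0.170 SE on the log2 scale (adjusted p = 2.68e-07), 1.06 ± 0.25 in WT alone and 1.79 ± 0.20 in Het alone. Every later library was above every day 8 library of its genotype. At day 8 Het over WT was 0.991 in replicate 1 and 0.430 in replicates 2 to 4, and −1.0 ± 0.252 SE over all (adjusted p = 0.215, and −1.22 ± 0.09 with adjusted p = 4.79e-05 without replicate 1). At days 14 and 21 it was −0.28 ± 0.168 (adjusted p = 0.278), lower in Het in 8 of 8 same-numbered pairs.

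*Igfbp4* rose by 0.81 ± 0.143 SE from day 8 to the later days (adjusted p = 4.92e-05). In WT the RQ of replicates 1 to 4 was 2.01, 4.04, 3.73 and 3.34 at day 8, 4.15, 5.33, 5.64 and 4.99 at day 14, and 4.73, 6.78, 6.58 and 5.71 at day 21. Het had 1.70, 2.77, 2.95 and 2.44 at day 8, 4.81, 2.65, 5.14 and 4.51 at day 14, and 4.82, 5.75, 5.36 and 3.32 at day 21. All later WT libraries were above those of day 8, as were all later Het libraries but replicate 2 of day 14. Between genotypes it was −0.27 ± 0.139 (adjusted p = 0.196) at the later days and −0.41 ± 0.235 at day 8 (adjusted p = 0.625, and 0.0321 with the replicate block, at −0.40 ± 0.06). At day 8 each Het well was lower than the same-numbered WT well, with a ratio of 0.844 in replicate 1 and 0.735 in replicates 2 to 4.

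*Igfbp7*, a relative of the binding proteins that binds IGFs weakly, rose in steps over the 3 days. Mean RQ in WT was 0.134 ± 0.0196 at day 8, 0.219 ± 0.0179 at day 14 and 0.398 ± 0.0561 at day 21 (mean ± SD, n = 4). The Het means on these days were 0.132 ± 0.0334, 0.189 ± 0.0423 and 0.327 ± 0.0811. All 8 libraries of day 21, at 0.269 to 0.480, were above all 8 of day 14, at 0.162 to 0.252. The log2 change was 1.03 ± 0.114 SE from day 8 to the later days (adjusted p = 9.87e-08) and 0.82 ± 0.115 from day 14 to day 21 (adjusted p = 0.000221). For the latter an exact permutation test gave p = 0.000155, the smallest that 8 against 8 can give. Het against WT was −0.25 ± 0.114 at days 14 and 21 (adjusted p = 0.149), lower in Het in 7 of 8 pairs, with ratios of 0.839 in replicate 1 and 0.836 in replicates 2 to 4. At day 8 it was −0.02 ± 0.177 SE (adjusted p = 0.990), and positive with TMM, both DESeq2 settings and the total count (0.04 to 0.06).

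*Igfbp3*, the gene of the main IGF carrier of blood, was low in replicate 1 of Het. Its RQ in replicates 1 to 4 of WT was 0.0222, 0.0795, 0.0828 and 0.0631 at day 8, 0.0587, 0.0449, 0.0678 and 0.0577 at day 14, and 0.0332, 0.0454, 0.0382 and 0.0365 at day 21. For Het the values were 0.0148, 0.0497, 0.0591 and 0.0379 at day 8, 0.0188, 0.0749, 0.0937 and 0.0748 at day 14, and 0.00940, 0.0398, 0.0401 and 0.0359 at day 21. Replicate 1 of Het was the lowest library of every Het group. At days 14 and 21 Het over WT was 0.307 in replicate 1 and 1.24 in replicates 2 to 4, and −0.03 ± 0.282 SE over all on the log2 scale (adjusted p = 0.964), with the sign turned by TMM, both DESeq2 settings and the total count. At day 8 it was −0.62 ± 0.466 (adjusted p = 0.730), with each Het well lower than its same-numbered WT well at a ratio of 0.666 in replicate 1 and 0.651 in replicates 2 to 4. With the replicate block that value was −0.62 ± 0.06 (adjusted p = 0.0174). From day 14 to day 21 it was −0.82 ± 0.283 (adjusted p = 0.0544), lower in 7 of 8 same-numbered pairs, with an exact permutation p of 0.00886. It passed with TMM, DESeq2's size factors or the total count (−0.84 to −0.85, adjusted p = 0.0479 to 0.0498).

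*Igfbp2*, whose product is known to be made by OBs, had no call in any of the 5 comparisons. Mean RQ of WT and Het was 1.83 ± 0.781 and 1.93 ± 1.03 at day 8, 2.65 ± 0.128 and 2.52 ± 0.966 at day 14, and 2.74 ± 0.265 and 2.37 ± 0.788 at day 21 (mean ± SD, n = 4). Replicate 1 held 0.716 in WT and 0.519 in Het at day 8, against 1.83 to 2.74 in the other wells of that day. From day 8 to the later days its ratio was 4.43 in replicate 1 and 1.09 in replicates 2 to 4, and 0.45 ± 0.254 SE over all (adjusted p = 0.136). In WT all 8 later libraries were above all 4 of day 8 (ratio 1.47, and 1.24 in replicates 2 to 4). In Het 4 of 8 were (ratio 1.27, and 0.960 in replicates 2 to 4). In Het, replicate 2 of day 14 (1.12) and replicate 4 of day 21 (1.24) were below the other late libraries, and these same wells also had the lowest late *Igfbp4*.

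Chondrocyte markers were lower in Het in replicates 2 to 4 and not in replicate 1 at the later days. Over days 14 and 21 the summed RQ of the 7 markers was 6.46 to 24.3 in WT and 1.65 to 26.1 in Het, and at day 8 it was 21.4 to 35.8 and 5.77 to 34.6. The ratio of Het to WT at day 8 was 0.966 in replicate 1 and 0.422 in replicates 2 to 4, and at days 14 and 21 it was 1.06 and 0.247. *Sox9*, the chondrocyte transcription factor, was the 1 of 7 called lower in Het at days 14 and 21 (−0.70 ± 0.196 SE, adjusted p = 0.0243 in edgeR's test). There 16.1% of all genes were called. From day 8 to the later days 5 of 7 fell and 1 rose, where 58.3% of all genes were called. The defining markers *Acan* and *Col2a1* were above 0 in every library. Of 6 fibroblast markers 5 were tested at days 14 and 21, and *Dpt* was higher (1.15 ± 0.374 SE, adjusted p = 0.047) and *Pdgfra* lower in Het (−0.40 ± 0.086, adjusted p = 0.00779), with *Cd34* at 0.60 ± 0.275 (adjusted p = 0.147). The summed RQ of the 6 was 0.437 to 0.559 in WT and 0.295 to 0.556 in Het over these days. At day 21 the median RQ of *Dpt* was 0.0225 in Het and 0.0068 in WT, while its lowest library was a Het one (0.00446). Osteoblast markers were lower in Het for 5 of 8 genes at days 14 and 21, against 16.1% of all genes called. Their summed ratio was 0.913 in replicate 1 and 0.716 in replicates 2 to 4. This sum is mostly *Col1a1* and *Col1a2*, the mutated gene. In WT at day 21 their median RQ was 155.5 and 144.6, and that of the sum was 320.3. The summed ratio is thus mainly one of type I collagen transcripts. All 8 rose from day 8, against 58.3% of all genes called. The part of these cells in the values of the 9 genes was not tested.

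Beyond the 9 genes, 12 other genes of the IGF system were followed, of which 10 passed the filter (*Igfbp1* and *Igfbpl1* did not). At days 14 and 21, 3 were lower in Het and none higher (30% called, against 16.1% of all genes), with a median of −0.27. These were *Ghr*, the growth hormone receptor gene (−0.51 ± 0.112 SE, adjusted p = 0.0083), *Adam12*, the gene of a metalloprotease that can cleave binding proteins (−0.44 ± 0.075, adjusted p = 0.00209), and *Insr*, the insulin receptor gene (−0.22 ± 0.062, adjusted p = 0.0258). None of the 10 passed at day 8, where 0% of all genes were called, or in the difference between the effects. From day 8 to the later days 7 rose and 2 fell (90% called, against 58.3% of all genes). The 2 that fell were *Igf2*, by 1.58 ± 0.124 SE on the log2 scale (adjusted p = 4.67e-10), and *Pappa*, the gene of the protease that cleaves IGFBP4, by 1.09 ± 0.121 (adjusted p = 1.01e-07). The largest rise was that of *Stc2*, which encodes an inhibitor of PAPPA (2.27 ± 0.235, adjusted p = 3.32e-08), and *Pappa2*, *Igfals*, *Htra1*, *Ghr*, *Insr* and *Adam12* rose by 0.43 to 0.96. From day 14 to day 21, where 30% of the 10 were called against 19.3% of all genes, *Igf2* fell by a further 1.55 ± 0.173 SE (adjusted p = 4.41e-05), and *Pappa2* (0.46 ± 0.147) and *Ghr* (0.35 ± 0.112) rose.

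Of 34 genes of IGF1R signalling, all tested, 1 was higher and 6 were lower in Het at days 14 and 21 (20.6% called, against 16.1% of all genes), with a median of −0.13. *Pik3cb*, which encodes a catalytic subunit of PI3 kinase, was higher (0.46 ± 0.112 SE, adjusted p = 0.0131). The largest falls were those of *Foxo1*, a transcription factor gene whose product AKT holds out of the nucleus (−0.66 ± 0.147, adjusted p = 0.00869), *Irs1*, the gene of an adaptor of the receptor (−0.42 ± 0.118, adjusted p = 0.0247), and *Grb14*, an adaptor gene known for inhibiting insulin receptor signalling (−0.23 ± 0.065, adjusted p = 0.0241). None of the 34 was called at day 8 or in the difference between the effects. From day 8 to the later days 13 rose and 3 fell (47.1%, against 58.3% of all genes). *Foxo1* (1.11 ± 0.124), *Irs2* (0.89 ± 0.079) and *Foxo3* (0.64 ± 0.058) rose most, and *Pik3r3*, *Socs3* and *Grb10* fell by 0.59, 0.39 and 0.15. From day 14 to day 21, 7 rose and 2 fell (26.5% called, against 19.3% of all genes), among them *Pik3cb* (0.49 ± 0.112) and *Irs2* (0.41 ± 0.085), with *Grb10* and *Rps6kb1* lower by 0.24 and 0.18.

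For each of the 9 genes, the 2 genes with the most similar pattern were found among 14850 with a mean of at least 50 counts, as the smallest root mean square difference of centred log2 RQ over the 24 libraries. The closest were *Wnk1* and *Arhgef12* to *Igf1r* (0.074 and 0.072), a gene that itself varied little (SD 0.132). *Creb3l2* and *Dusp18* were closest to *Igf2r* (0.118 and 0.128), and *C1ra* and *Gng7* to *Igfbp4* (0.144 and 0.154). *C1qtnf5* and *Mfrp*, a pair of overlapping genes that can share reads, were closest to *Igfbp7* (0.156 and 0.157). *Apod* and *Atp8a1* followed *Igf1* at 0.273 and 0.302, against an SD of 0.993 for *Igf1*. Differences were larger for *Igfbp5* (*Hecw2* 0.310, *Hr* 0.311), *Igfbp2* (*Tnfrsf19* 0.319, *Shank1* 0.325), *Igfbp6* (*Flt3l* 0.338, *Gsdmd* 0.341) and *Igfbp3* (*Bcl11b* 0.433, *Spock2* 0.491). These measures share the libraries, their depth and the housekeeping scale, and are a description.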

How the data were processed

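Bulk RNASeq of WT and Het primary OB cultures was analysed at days 8, 14 and 21 (4 libraries a group, 24 in all). The files deposited hold raw counts for each gene, which the authors made from polyadenylated RNA and TruSeq libraries. The submitters' processing notes name cutadapt 2.5, STAR 2.73a, featureCounts 1.6.4 and the mm10 genome. The annotation, the strand setting and the handling of reads with several matches are not given in the sources used here. There were no molecular identifiers, so counts include PCR duplicates. Gene models were taken from GENCODE M21 (GRCm38), where 54587 of 55335 identifiers were found.

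RQ followed the study's housekeeping normalization with *Actg1*, *Actb*, *Mrfap1* and *Sdha*. Counts were tested with edgeR 4.0.16 (R 4.3.3; glmQLFit, glmQLFTest, filterByExpr by group), with the housekeeping mean set as the library size and Benjamini-Hochberg adjustment over all genes tested at 0.05. The SE is the absolute log2 fold change divided by the square root of F. The fit was also run on simulated counts, drawn independently for each library with housekeeping counts held at their expected values. Such a run cannot show how the fit handles effects shared by same-numbered libraries. Beside ratios of mean RQ, exact permutation tests (two-sided) of the difference in mean RQ were run. They shuffled libraries without regard to replicate number or to the day or genotype that was not compared. Alternatives were other scalings, DESeq2 1.42.0, other filters, single days or genotypes, each replicate number left out, and the replicate number or replicate 1 as a block.

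Same-numbered WT and Het libraries deviated together from their group means (12 of 12 correlations between 0.193 and 0.738, median 0.577, against −0.114 for 36 pairs of different numbers). The labels give the numbers and not what they share, and among replicates 2 to 4 the median was 0.290 (−0.011 to 0.493). For same-numbered libraries of 2 days of one genotype the median was 0.425 (24 pairs, −0.078 to 0.666). No 2 libraries of a group agreed within sampling noise.

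The 9 genes, the lists of 12 IGF system genes, 34 IGF1R signalling genes and markers of 8 cell types, and the tests were chosen with earlier results of these data known. All 9 genes are named, as are genes of the IGF system list. Of the signalling list, the 3 largest rises and falls among genes called are named in each comparison, except 1 that is not reported here. For likeness, the 2 closest genes of each member are named. *Csf1r*, *Sox9*, *Dpt*, *Pdgfra* and *Cd34* were picked as examples of their marker lists after their values were seen.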

Additional observations from a re-analysis of the deposited data

Results flagged for a closer look

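A single library stood apart from the other 3 of its group by Dixon's test at the 95% level in 2 of 54 groups of gene, genotype and day, where chance flags about 1 in 20. Both were replicate 1. *Igf1r* had an RQ of 0.117 in WT replicate 1 at day 21, against 0.139 to 0.142 in replicates 2 to 4. *Igfbp3* had an RQ of 0.00940 in Het replicate 1 at day 21, against 0.0359 to 0.0401 in the other wells.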

How the results depend on the processing

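Of the values of single genes under the alternatives, 784 kept their direction and their side of the threshold, 62 came to pass it, 23 no longer passed it and 31 changed sign. The counts of calls turned on the replicates. Leaving out one replicate number at a time called 0 to 4 of the 9 genes and 139 to 7582 of all genes for Het against WT at days 14 and 21, 0 to 4 and 0 to 3432 at day 8, 0 to 2 and 0 to 928 for the difference between the effects, and 1 to 6 and 1697 to 5573 from day 14 to day 21, with the highest counts without replicate 1 in each. For Het against WT at days 14 and 21, 2 of the 9 genes were called without *Mrfap1* in the scale and 2 by DESeq2's Wald test, and 0 at day 14 alone. All-gene counts there were 3291 without *Mrfap1* in the scale, 5107 with the Wald test and 5057 with replicate 1 as a covariate. They were 34 at day 14 alone, 368 at day 21 alone and 1300 with no day covariate. At day 8 the Wald test called 1 of the 9 genes and 451 in all, replicate 1 as a covariate 4 and 704, and one fit of all 24 libraries 129 in all. For the difference between the effects the all-gene counts were 95 with the Wald test and 73 with the covariate. In Het alone 7691 genes changed from day 8 to the later days, and 0 of the 9 genes and 69 in all from day 14 to day 21.

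With the replicate number as a block, 3 of the 9 genes and 285 of all genes were called at day 8 and 67 in all for the difference between the effects. The block changed no call of the 9 genes beyond those given with the results. The block without replicate 1 was chosen after seeing the data. It called 5 of the 9 genes and 7502 in all at days 14 and 21, and 6 and 5778 at day 8. For the difference between the effects it called 2 and 920, and from day 14 to day 21 it called 6 and 5429.

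Some small values changed sign, none of them passing the test on either side. For Het against WT at days 14 and 21 these were *Igf1r* with the total count (0.008) and *Igfbp3* with TMM (0.031), size factors (0.041), the total count (0.073), the Wald test (0.024), day 14 alone (0.207), no day covariate (0.026), the RQ ratio of the exact permutation test (0.018) and the block without replicate 1 (0.235). At day 8 they were *Igfbp2* with the block (−0.026) and the covariate (−0.016), and *Igfbp7* with TMM (0.040), size factors and the Wald test (0.048 in both) and the total count (0.062). The difference between the effects turned for *Igf1r* with TMM (−0.001) and with the block without replicate 1 (−0.016). The change from day 8 turned for *Igf1r* at day 21 alone (0.009) and for *Igfbp3* in Het alone (0.171) and at day 14 alone (0.291), and that from day 14 to day 21 for *Igfbp2* without *Sdha* in the scale (0.000) and in WT alone (0.046). Leaving out one replicate number at a time gave ranges across 0 for Igfbp3, Het against WT at days 14 and 21 (−0.169 to 0.238), for Igfbp7, Het against WT at day 8 (−0.086 to 0.041), and for the difference between the effects for *Igf1r* (−0.016 to 0.114) and *Igf2r* (−0.122 to 0.068) and the change from day 14 to day 21 for *Igfbp2* (−0.228 to 0.125) and *Igfbp5* (−0.106 to 0.282). The cause was not tested.

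The lowest counts limit precision for *Igfbp3* (95 counts in one library) and *Igfbp6* (99).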
